A study of Mus musculus with 30 samples.

Results

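Neuronal nicotinic acetylcholine receptors are ligand-gated cation channels assembled from alpha and beta subunits. The 6 genes described here encode the subunits Chrna3, Chrna4, Chrna5, Chrna7, Chrnb2 and Chrnb4. They were listed by name, with their RNA values in these libraries already known: Chrna5 and Chrnb4 had come out as higher in Mnx1 knockout motor neurons. Their RNA levels, folds and calls are therefore a description without a test. They are 6 of the 16 nicotinic subunit genes and of the 45706 genes in the deposited tables.

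Chrna3 and Chrnb4 form the main receptor of autonomic ganglia, and Chrna4 and Chrnb2 the most common receptor of the brain. Chrna5 is an accessory subunit that joins either pair and binds no agonist without them, while Chrna7 forms channels on its own. Chrna5, Chrna3 and Chrnb4 lie side by side in 1 gene cluster. Spinal motor neurons release acetylcholine onto muscle and onto Renshaw interneurons, and carry neuronal nicotinic receptors themselves. The muscle receptor is built from other subunits and is made by the muscle fibre.

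The series asks which neuronal genes depend on Mnx1, a homeobox gene of motor neurons also known as Hb9. RNA was measured in 4 groups of 2 libraries. The first was of wild-type mouse embryonic stem (ES) cells, and the others were of motor neurons that were wild type or came from the lines HD and EH, both with the genotype label Mnx1KO. Every motor neuron group was taken at day 6 of differentiation from ES cells as embryoid bodies. The cells had received 1 µM retinoic acid and 1 µM SAG, a Smoothened agonist, followed by these together with 1 µM doxycycline and 5 µM DAPT, which blocks Notch signalling. The labels do not explain the names HD and EH, and do not say what doxycycline switches on, whether each line is 1 clone, or whether replicates were separate cultures. Adjusted p-values below measure the spread between these libraries, which may be technical. ChIP-seq regions were deposited as 1 list per mark and genotype, for 5 histone marks in wild-type and HD motor neurons and for Mnx1 in wild-type motor neurons.

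Total expected counts per library, in units of 1000000, were 11.2 to 13.9 in wild-type and HD motor neurons, 39.7 to 39.8 in EH and 51.3 to 53.2 in ES cells. The summed level of 8 spinal motor neuron markers was 1499 to 1776 TPM (a share of the library's transcripts, scaled to gene length) in wild type, 1422 to 1630 in HD and 1918 to 2330 in EH, with none of them at 0. In ES cells it was 2.40 and 2.62. Mnx1 RNA stood at 343 and 395 TPM in wild type, 312 and 377 in HD, and 446 and 565 in EH. The labels do not say which part of Mnx1 was altered, so its RNA does not check the knockouts. Autonomic and visceral motor markers summed to 119 to 127 TPM in wild type, 147 to 155 in HD and 215 to 339 in EH. Th made up most of the EH sum (165 and 293 TPM), and the 7 others summed to 71.0 to 77.2, 92.8 to 107 and 45.7 to 49.9 TPM, so that EH was then lowest. Placental trophoblast markers, foreign to a neuron culture, summed to 503 to 580, 464 to 624 and 27.5 to 98.1 TPM in the same order. Of the autonomic list, 3 of 8 genes were higher in EH than in wild type, 3 lower and 2 did not pass, and all 7 trophoblast genes tested were lower (edgeR, adjusted p of 0.05). Over all genes tested, 9.61% were called higher in EH and 11.6% lower, the background for each EH count in this paragraph. Interneuron markers summed to 46.7 to 60.5 TPM in wild type, 49.85 to 53 in HD and 12.4 to 22.5 in EH, with 3 of 6 tested genes lower in EH. Gata2 made up most of that sum, and the 9 others were highest in HD, at 4.23 to 4.94, 9.79 to 13.25 and 1.94 to 2.18 TPM. The 6 tested genes of the list had a median log2 fold change of 1.32 in HD, where none passed, with Gad1 at 1.46 ± 0.31, Gad2 at 2.32 ± 0.35 and Slc6a5 at 2.21 ± 0.45. Sensory neuron markers summed to 13.7 to 19.0, 18.3 to 21.35 and 23.15 to 28.6 TPM, with 4 of 5 tested genes higher in EH and 1 lower. Neural progenitor markers summed to 31.0 and 32.0 TPM in wild type, 86.5 and 88.7 in HD, and 38.55 and 47.1 in EH, with 1 of 5 tested genes higher in EH and none called in HD. Sox1 alone was at 61.8 and 66.5 TPM in HD, and without it the sums were 19.6 to 24.8, 22.2 to 24.7 and 26.4 to 41.4. No marker of these 5 lists was at 0 in both libraries of a motor neuron group.

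The promoters of the gene cluster are shown first, since the RNA differences described below centre on it. On the mouse build GRCm38.p6, Chrna5 runs on the plus strand of chromosome 9 from 54980827 to 55011420, Chrna3 on the minus strand from 55010117 to 55026562 and Chrnb4 on the minus strand from 55028154 to 55048953. The cluster spans 68.1 kb. The ends of Chrna5 and Chrna3 overlap by 1304 bp, and 1591 bp separate Chrna3 from Chrnb4. The library kit keeps strand, but whether counting used it is not given in the sources used here, so reads from the overlap may be shared between Chrna5 and Chrna3. The RefSeq windows below run from 250 bases before a transcript start to 50 bases after it, in the gene's own direction. Capitals mark GGGCGG, the GC box core, and TAAT, the homeodomain core, each on either strand. Chrna5 has 2 annotated starts, and both are given because they differ in sequence: chr9:54980630-54980929 and chr9:54981238-54981537, plus strand. The Chrna3 window is chr9:55026513-55026812 and the Chrnb4 window chr9:55048495-55048794, both on the minus strand.
Chrna5 start 1: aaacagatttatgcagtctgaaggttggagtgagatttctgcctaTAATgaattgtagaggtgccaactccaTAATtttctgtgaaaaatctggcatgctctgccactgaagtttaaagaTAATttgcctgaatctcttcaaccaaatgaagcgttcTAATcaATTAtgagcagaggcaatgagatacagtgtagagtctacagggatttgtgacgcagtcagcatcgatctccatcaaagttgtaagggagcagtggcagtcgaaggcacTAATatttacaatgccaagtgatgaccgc
Chrna5 start 2: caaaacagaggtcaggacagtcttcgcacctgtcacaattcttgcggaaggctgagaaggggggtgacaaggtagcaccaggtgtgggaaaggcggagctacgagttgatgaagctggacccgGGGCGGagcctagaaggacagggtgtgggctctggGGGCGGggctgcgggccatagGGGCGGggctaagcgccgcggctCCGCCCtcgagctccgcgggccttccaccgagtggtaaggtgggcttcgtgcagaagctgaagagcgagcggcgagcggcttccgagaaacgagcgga
Chrna3: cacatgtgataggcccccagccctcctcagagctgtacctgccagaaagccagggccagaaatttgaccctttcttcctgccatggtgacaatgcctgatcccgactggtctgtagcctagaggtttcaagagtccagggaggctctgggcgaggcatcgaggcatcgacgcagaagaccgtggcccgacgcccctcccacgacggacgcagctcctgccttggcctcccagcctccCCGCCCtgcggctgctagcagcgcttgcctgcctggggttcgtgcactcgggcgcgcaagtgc
Chrnb4: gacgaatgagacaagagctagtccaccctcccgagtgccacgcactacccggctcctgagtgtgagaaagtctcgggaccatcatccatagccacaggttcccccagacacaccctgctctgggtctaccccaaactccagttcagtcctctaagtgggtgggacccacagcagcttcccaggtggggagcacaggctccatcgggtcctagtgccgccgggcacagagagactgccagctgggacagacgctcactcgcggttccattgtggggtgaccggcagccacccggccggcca

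The first Chrna5 window had a GC content of 41.3% and 6 TAAT matches, and the second a GC content of 65.0%, 4 GC box matches and no TAAT. TAAT was present in 58.0% of 32851 RefSeq promoter windows of this length, with 4 or more matches in 11.6%, and GGGCGG in 35.7%. The Chrna3 window held 1 GC box match and the Chrnb4 window none, and neither held TAAT. The windows of Chrna4, Chrnb2 and Chrna7 held 3, 1 and 1 GC box matches and no TAAT. A match describes the letters and is not a binding site, and a missing match says only that the letters are not in the window.

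All 6 subunit genes were higher in wild-type motor neurons than in ES cells. Their median log2 fold change was 4.90, beside 0.02 over all genes tested. All 6 passed an adjusted p of 0.05 (edgeR's quasi-likelihood test, Benjamini-Hochberg), in a comparison that called 38.8% of genes higher. Because the genes were picked with these values known, nothing is read from that count. On log2(TPM + 1) with limma the median over all genes was 0.53, and 8671 genes were called higher and 3766 lower in place of 6898 and 6484; the 6 subunits were higher by 2.35 or more under every alternative.

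In wild-type motor neurons the subunits ran in the order Chrna4, Chrna3, Chrnb2, Chrna7, Chrnb4, Chrna5, with no overlap between neighbours in the 2 libraries. The brain-type pair and Chrna3 thus led, and the accessory subunit was lowest.

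**Figure D1:**
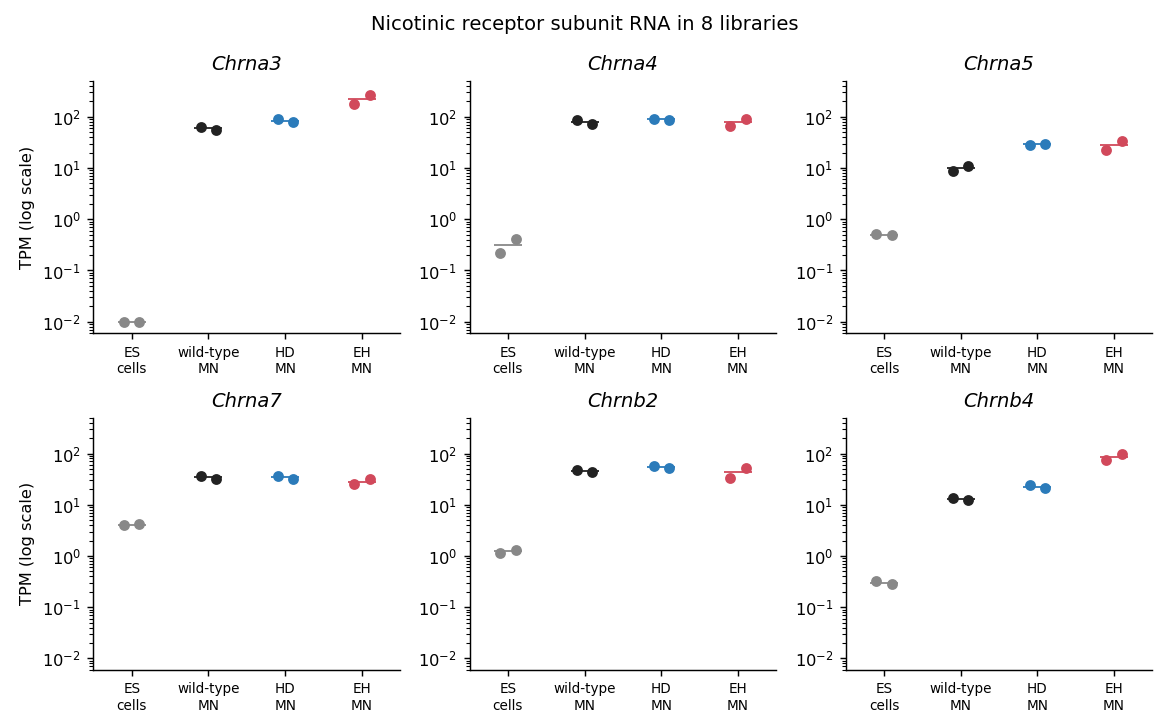
RNA level of each subunit gene in TPM (log axis) by group, with 1 point per library and a line at the mean of 2 libraries (MN, motor neurons). All 6 genes are lowest in ES cells, and Chrna3, Chrna5 and Chrnb4 in EH lie above both wild-type libraries.

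Chrna4, the agonist-binding subunit of the brain-type receptor, was at 0.22 and 0.41 TPM in ES cells and 86.2 and 71.0 TPM in wild-type motor neurons. It was at 92.2 and 85.3 TPM in HD and 65.0 and 92.7 TPM in EH. The 3 motor neuron groups overlapped. Its log2 fold change was 0.19 ± 0.18 (SE) in HD and 0.03 ± 0.18 in EH, each against wild type, and the EH value changed sign when 1 EH or 1 wild-type library was left out (−0.24 to 0.28).

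Chrnb2, the beta subunit that pairs with Chrna4, was at 1.14 and 1.33 TPM in ES cells, 47.0 and 43.7 in wild type, 57.5 and 52.2 in HD, and 34.0 and 52.0 in EH. Both HD libraries lay above wild type, by 0.28 ± 0.18 on the log2 scale. The EH libraries fell on either side of wild type (−0.08 ± 0.18), at −0.40 and called lower without EH replicate 2 and at 0.20 without replicate 1.

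Chrna7, the subunit that forms channels on its own, was the highest of the 6 in ES cells at 4.00 and 4.15 TPM. It stood at 36.6 and 31.8 TPM in wild type, 37.1 and 31.85 in HD, and 25.4 and 31.2 in EH. The fold against ES cells, 2.42 ± 0.15 on the log2 scale, was the smallest of the 6. HD overlapped wild type (0.02 ± 0.14). Both EH libraries lay below both wild-type libraries, by 0.25 on the log2 scale (−0.25 ± 0.14).

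Chrna3, the agonist-binding subunit of the ganglionic receptor, was at 0.01 TPM in each ES library, from 1 count in each. The ratio of wild-type motor neurons to ES cells, each count over its library total, was 5432, with a 95% counting interval of 1502 to 44874 that covers counting error only. Chrna3 was at 64.6 and 56.5 TPM in wild type, 90.1 and 79.0 in HD, and 174 and 264 in EH. The 3 groups did not overlap. Its log2 fold change was 0.49 ± 0.19 in HD and 1.87 ± 0.20 in EH, and it was lower in HD than in EH (−1.38 ± 0.19).

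Chrnb4, the beta subunit that pairs with Chrna3, was at 0.32 and 0.28 TPM in ES cells. It was at 13.25 and 12.2 TPM in wild type, 23.9 and 21.4 in HD, and 74.97 and 99.0 in EH. The 3 groups were again separate and in the same order as for Chrna3. The log2 fold change was 0.84 ± 0.15 in HD and 2.79 ± 0.15 in EH, which was the largest of the 6, and HD was lower than EH (−1.95 ± 0.15).

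Chrna5, the accessory subunit, was at 0.51 and 0.49 TPM in ES cells and 8.78 and 11.2 TPM in wild type. It was at 28.6 and 29.4 TPM in HD and 22.4 and 33.0 TPM in EH. Both lines lay above wild type and overlapped each other, unlike for the 2 other genes of the cluster. The log2 fold change was 1.55 ± 0.22 in HD, 1.49 ± 0.22 in EH and 0.06 ± 0.20 between the lines.

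In HD, the TPM of 4 subunits lay above wild type in both libraries (Chrna3, Chrna5, Chrnb2 and Chrnb4), as for 18% of all genes tested, and none below (23.6% of genes). In EH, 3 lay above wild type (Chrna3, Chrna5 and Chrnb4), as for 28.1% of genes, and Chrna7 lay below, as for 32.5%. Between the lines, Chrna3 and Chrnb4 were higher in EH without overlap (29.6% of genes) and Chrna7 and Chrnb2 lower (32.2%).

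By edgeR's test, 3 subunits (Chrna3, Chrna5 and Chrnb4) were called higher in EH than in wild type, where 9.61% of genes were, and none lower, where 11.6% were. Without 1 of the wild-type libraries only Chrnb4 kept its call, with a log2 fold change of 2.83 without replicate 1 and 2.76 without replicate 2. Chrna3 was then at 1.95 and 1.81, and Chrna5 at 1.30 and 1.70. In HD, 0 of 6 subunits were called at an edgeR adjusted p of 0.05, where 0.135% of genes were called higher. An unadjusted p under 0.05 was reached by 3 subunits and by 871 of all 15565 genes tested. DESeq2 called 2 (Chrna5 and Chrnb4; 0.938% of genes higher), and edgeR on the HD and wild-type libraries alone called 3 (Chrna3, Chrna5 and Chrnb4; 1.71%). The same 3 were called without either EH library. For the mean of both lines, Chrna3, Chrna5 and Chrnb4 were called higher at 1.18 ± 0.17, 1.52 ± 0.20 and 1.81 ± 0.14, where 0.283% of genes were. All 3 lost that call when any 1 HD or wild-type library was left out and with a replicate block, and Chrna3 also with limma (1.15 and 1.14). Without the HD and wild-type libraries in turn they were at 1.12 to 1.26, 1.33 to 1.73 and 1.78 to 1.85. Without EH replicate 1, Chrnb2 was also called higher, at 0.24. Between the lines, Chrna3 and Chrnb4 were called lower in HD, where 9.43% of genes were; without HD replicate 2, Chrna3 was at −1.29 and no longer called. Without EH replicate 2, Chrna4, Chrna7 and Chrnb2 were also called, as higher in HD than in EH, at 0.43, 0.42 and 0.69. Since the genes were picked on these comparisons, nothing is read from the counts. Both lines were compared with the same 2 wild-type libraries, so their folds are not independent of each other. The median log2 fold change of the 6 was 0.39 in HD and 0.76 in EH, beside −0.01 and 0.00 over all genes.

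**Figure D2:**
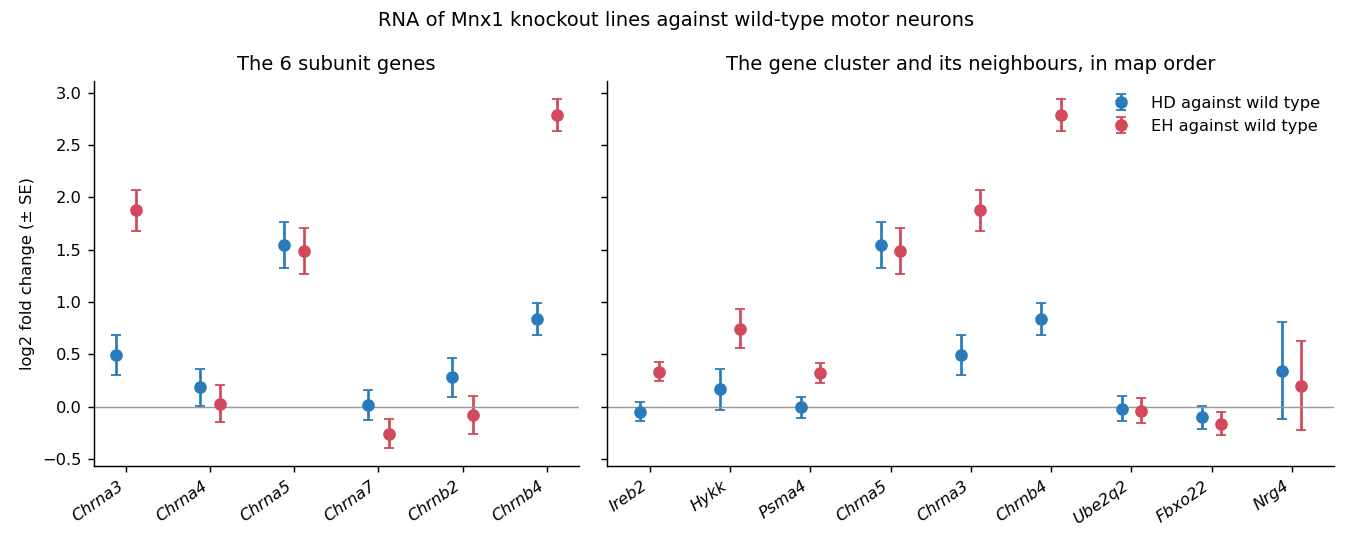
Log2 fold change against wild-type motor neurons with its standard error, for HD (blue) and EH (red). Left, the 6 subunit genes. Right, the cluster with the 3 tested genes on either side in map order. The 3 subunit genes, picked with these values known, stand above their neighbours in EH, and Chrnb4 reaches 2.79.

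The sum of the 6 subunits was 241 ± 21.3 TPM (SD, n = 2) in wild type, 314 ± 21.4 in HD and 484 ± 124 in EH. The cluster genes Chrna3, Chrna5 and Chrnb4 made up 34.5 ± 1.06% of it in wild type, 43.3 ± 0.068% in HD and 68.9 ± 0.46% in EH. Among the beta subunits, Chrnb4 was 21.9 ± 0.099% of Chrnb2 plus Chrnb4 in wild type, 29.2 ± 0.23% in HD and 67.2 ± 2.3% in EH. Chrnb2 thus led in wild type and HD, and Chrnb4 in EH. The ratio of Chrna3 to Chrna4 was 0.773 ± 0.032, 0.952 ± 0.035 and 2.76 ± 0.12 in the same order. Relative to Chrna3, Chrna5 moved differently: it was at 16.7 ± 4.39% of the Chrna3 level in wild type, 34.5 ± 3.82% in HD and 12.7 ± 0.23% in EH.

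**Figure D3:**
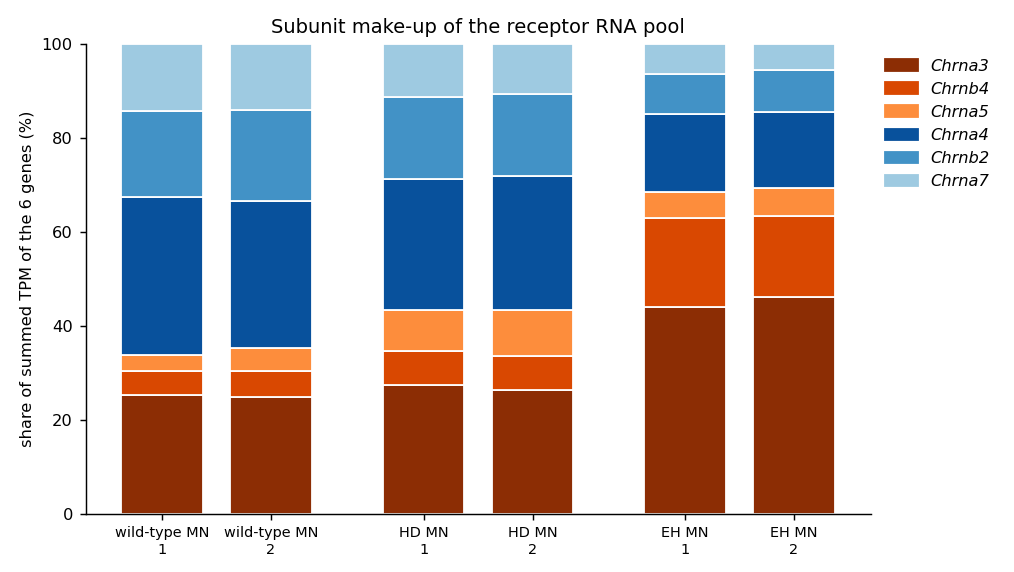
Share of each gene in the summed TPM of the 6 subunits, 1 bar per motor neuron (MN) library, with the cluster genes in orange shades and the others in blue. The orange part is 34.5% on average in wild type, 43.3% in HD and 68.9% in EH.

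Within EH the order was Chrna3, Chrnb4, Chrna4, Chrnb2, Chrna7, Chrna5. Chrnb4 and Chrna4 overlapped there, as did Chrna7 and Chrna5. In HD it was Chrna4, Chrna3, Chrnb2, Chrna7, Chrna5, Chrnb4, with an overlap between Chrna4 and Chrna3 alone. In bulk RNA, more cells of a type and more RNA per cell cannot be told apart. Of the markers given above, the trophoblast and interneuron sums were lower in EH, where Chrna3 and Chrnb4 were higher, and most tested sensory markers were higher there. The spinal motor neuron sum was also highest in EH. Of its 8 genes, Isl1 alone was called higher in EH (0.89 ± 0.15, edgeR adjusted p = 0.011) and 0 lower, where 9.61% and 11.6% of all genes were. Without Isl1 that sum was 1216 to 1414 TPM in wild type, 1090 to 1215 in HD and 1324 to 1635 in EH, so wild type and EH overlapped. The autonomic sum was higher in EH through Th and lower without it, and the progenitor sum was highest in HD through Sox1. Within the autonomic list, Dbh (noradrenaline synthesis) was higher in EH by 3.21 ± 0.31 (log2; edgeR adjusted p = 0.0040) and Th (catecholamine synthesis) by 2.25 ± 0.27 (adjusted p = 0.0059), as was Tbx20, a factor of cranial motor neurons, by 1.29 ± 0.28 (adjusted p = 0.022). Hand2, a regulator of autonomic neurons, was lower in EH (−2.02 ± 0.46, adjusted p = 0.025), as were Hand1 (−1.37 ± 0.28, adjusted p = 0.019) and Gata3 (−1.51 ± 0.27, adjusted p = 0.013), which are also known from trophoblast. The part of other cell types in the subunit values was not tested.

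Over the 6 motor neuron libraries, Pearson's r of log2(TPM + 1) was 0.99 between Chrna3 and Chrnb4, 0.66 between Chrna3 and Chrna5 and 0.68 between Chrnb4 and Chrna5. The points share libraries, and these values describe 3 groups of 2. Among 2453 genes with enough range, those most like Chrna3 were Lrrn3 (r = 0.998), Zdbf2 (0.997) and Zfp608 (0.996). Those most like Chrnb4 were Zfp608 (0.998), Xlr3c (0.997) and Lrrn3 (0.995), so 2 of the 3 were the same genes. Lrrn3 averaged 5.04 TPM in wild type, 7.68 in HD and 25.3 in EH. Those most like Chrna5 were Pdzrn4 (0.988), Hs3st3a1 (0.983) and Gpc6 (0.960), and Pdzrn4 averaged 1.98, 5.81 and 6.63 TPM. Chrna7 was closest to Sema4a (0.983) and Kcnh4 (0.973), Chrnb2 to Hpca (0.961), Prnp (0.942) and Ndrg2 (0.937), and Chrna4 to Hpca (0.856), Asphd1 (0.852) and Pcdha9 (0.850).

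The other 10 nicotinic subunits were low. Chrnb1, a muscle-receptor subunit, was at 2.73 to 8.72 TPM over the 8 libraries. Chrna9, known from hair cells, was at 9.61 and 8.31 TPM in ES cells and at most 0.81 in motor neurons (−6.44 ± 0.56 on the log2 scale, edgeR adjusted p = 1.5e-05). The 8 others stayed under 1 TPM in each library, among them Chrna2 at 0.17 to 0.83 TPM in motor neurons and Chrnb3, which reached 0.01. Chrnb1 and Chrna2 alone were tested among motor neurons, and neither passed in HD or EH. Chrnb1 was at −0.34 ± 0.29 in HD and −0.50 ± 0.28 in EH, and Chrna2 at 0.08 ± 0.48 and −1.38 ± 0.47.

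RNAs for several proteins that bind nicotinic receptors fell in EH, and 1 of these, Lypd1, rose in HD. The part of other cell types in these values was not tested. Of the Ly6 family, small membrane-bound proteins related to snake toxins that bind receptor subunits, 5 of 8 listed genes were tested. Lypd1 (lynx2), which damps neuronal receptors, was at 85.9 and 101 TPM in wild type, 313 and 334 in HD, and 43.8 and 51.3 in EH. It rose in HD (1.81 ± 0.16, adjusted p = 0.019 by edgeR, in 2 of 2 libraries) and fell in EH (−0.85 ± 0.16, adjusted p = 0.014), with the 3 groups apart. Ly6h, which holds back surface receptors with Chrna7, fell from 123 and 104 TPM to 55.9 and 62.1 in EH (−1.10 ± 0.14, adjusted p = 0.0063). Ly6e, also at 146 and 114 TPM in ES cells, fell from 227 and 244 TPM in wild-type motor neurons to 109 and 118 in EH (−1.03 ± 0.12, edgeR adjusted p = 0.0057). Lynx1, the founding member, was at 0.89 to 2.24 TPM over motor neurons and did not pass. In EH, 3 of 5 Ly6 genes were called lower and 0 higher, where 11.6% and 9.61% of all genes were (median −0.86, beside 0.00 over all genes), and all 3 calls were lost without 1 of the wild-type libraries. In HD 1 was called higher, where 0.135% of all genes were, and 0 lower.

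Of 7 listed assembly and trafficking genes, 5 were tested among motor neurons: 1 rose and 2 fell in EH, where 9.61% and 11.6% of all genes did, and none passed in HD by edgeR (median −0.12 in EH and 0.19 in HD). Tmem35a (NACHO), a chaperone needed for Chrna7 and other neuronal receptors to assemble, fell from 47.4 and 43.75 TPM to 26.97 and 31.4 (−0.62 ± 0.11, adjusted p = 0.012). Ric3, another chaperone of neuronal receptors, rose from 12.7 and 12.4 TPM to 16.1 and 20.4 (0.57 ± 0.16, adjusted p = 0.048). Vsnl1, a calcium sensor that binds Chrna4, fell from 2.40 and 2.29 TPM to 0.72 and 0.78 (−1.62 ± 0.36, adjusted p = 0.023). Unc50 and Ubxn2a did not pass (−0.09 ± 0.12 and −0.12 ± 0.12 in EH). Without 1 of the wild-type libraries, no EH call of the Ly6 and assembly lists passed: Lypd1 was then at −1.02 and −0.65, Ly6h at −0.96 and −1.22, Ly6e at −1.11 and −0.95, Tmem35a at −0.59 and −0.65, Vsnl1 at −1.61 and −1.63, and Ric3 at 0.54 and 0.60. Ric3 also lost its call without either HD library and without EH replicate 2 (0.33), and kept it in only 3 of 13 alternatives. The HD call of Lypd1 was lost without any 1 HD or wild-type library (1.64 to 2.00) and with a replicate block (adjusted p = 0.067).

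**Figure D4:**
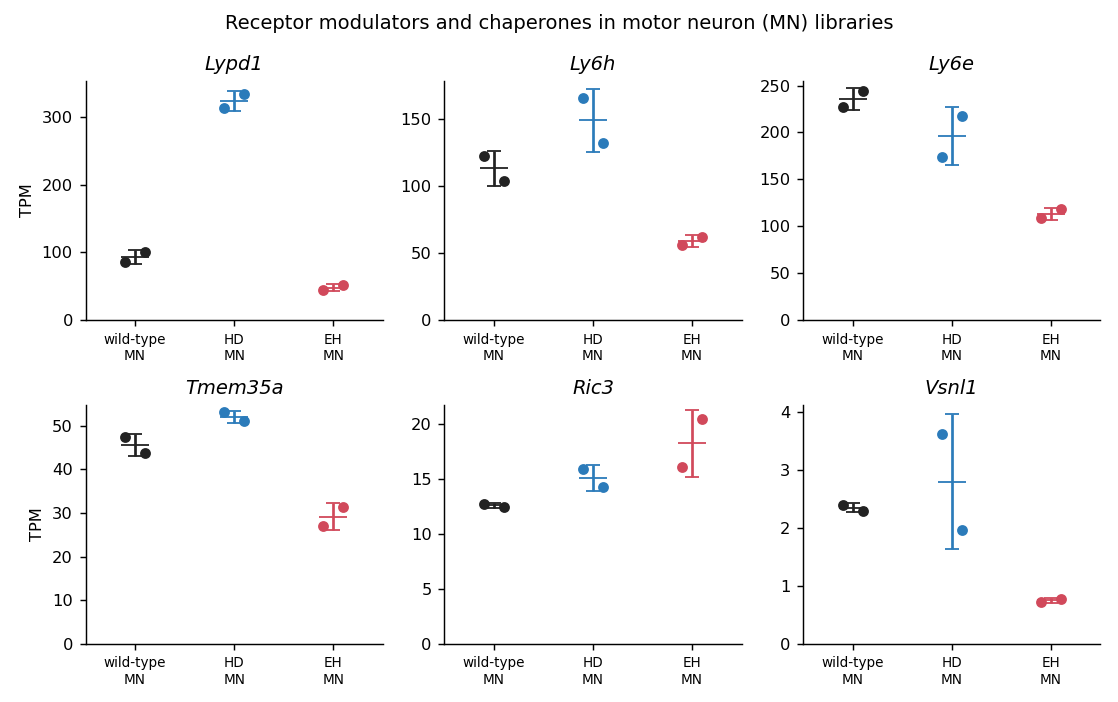
TPM of 6 genes for proteins that bind or help assemble nicotinic receptors, by motor neuron (MN) group, with 1 point per library and mean ± SD (n = 2). Lypd1 is highest in HD at 313 and 334 TPM, Lypd1, Ly6h, Ly6e, Tmem35a and Vsnl1 are lowest in EH, and Ric3 is highest in EH.

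Of 12 other cholinergic genes 9 were tested, with 1 higher and 1 lower in EH, near the 9.61% and 11.6% of all genes, and none called in HD by edgeR (median −0.13 in EH and 0.12 in HD). Bche (butyrylcholinesterase) rose from 3.50 and 2.26 TPM to 7.35 and 5.58 (1.35 ± 0.18, adjusted p = 0.0066). Chrm3, a muscarinic receptor, fell from 12.8 and 10.8 TPM to 8.32 and 7.94 (−0.52 ± 0.14, adjusted p = 0.041). Bche lost its call without 1 of the wild-type libraries (1.34 and 1.37), and Chrm3 without any 1 HD or wild-type library (−0.56 to −0.48). Chrm3 also lost it without EH replicate 2 (−0.45), and kept it in only 3 of 13 alternatives. Chat and Slc18a3, which make and load acetylcholine, were at −0.58 ± 0.16 and −0.20 ± 0.12 in HD and at −0.14 ± 0.16 and −0.18 ± 0.12 in EH and did not pass.

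The neighbours of the cluster moved less than the cluster. The subunit genes were picked with their values known, so nothing is read from that contrast. Of 6 tested genes within 200 kb, Hykk and Ireb2 were higher in EH by 0.75 ± 0.19 (adjusted p = 0.033) and 0.33 ± 0.09 (adjusted p = 0.043), none was lower (9.61% and 11.6% of all genes), and none passed in HD by edgeR (median 0.26 in EH and −0.01 in HD). Both calls were lost without any 1 HD or wild-type library, at 0.72 to 0.78 for Hykk and 0.30 to 0.37 for Ireb2. Over all alternatives, Hykk kept its call in 4 of 13 and Ireb2 in 5 of 13. Psma4, the nearest to Chrna5, was at 0.32 ± 0.10 in EH, and Ube2q2, the nearest coding gene upstream of Chrnb4, at −0.04 ± 0.12.

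The deposited ChIP-seq regions were set beside these genes. Each region carries the authors' fold enrichment and −log10 q. They are used to describe a region within its own list, since each list stands for 1 mark and genotype without replicate spread. No Mnx1 region lay within 2 kb of any of the 6 starts, against 14.3% of coding genes with one. Within 50 kb of the gene, 3 of 6 had one (Chrna3, Chrnb4 and Chrnb2), against 38.3% of coding genes, a share too near the background to say anything of the 6. Within 10 kb it was 1 of 6 (22.7%) and within 100 kb 5 of 6 (51.3%).

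A pair of Mnx1 regions lay upstream of Chrnb4, outside the cluster. The region at chr9:55067263-55068030 was centred 19.1 kb from the Chrnb4 start, with a fold enrichment of 8.55 and a −log10 q of 41.4, rank 48 of the 5793 Mnx1 regions. The region at chr9:55089916-55090708 was centred 41.8 kb from it, with a fold enrichment of 5.98 and rank 362. Among coding genes, Chrnb4 had the nearest start to both. Both lay under H3K27ac regions in the wild-type list (fold 4.19 and 4.88) and in the HD list (4.93 and 6.43), and under H3K4me1 regions (10.9 and 9.72 in wild type, 5.86 and 6.92 in HD). The 2 wild-type H3K4me1 regions were above 99.7% and 99.3% of their list or level with it. H3K4me3, H3K27me3 and H3K9me3 lists had no region at either place, and H3K27ac with H3K4me1 but without H3K4me3 is the combination known from active enhancers. The peak names of the wild-type H3K27ac list begin with K27ac_KO although its label is wild type. The label was followed here, and the file does not settle which genotype it holds, which touches every wild-type H3K27ac value given.

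The Mnx1 region near Chrnb2, at chr3:89773247-89773714, had a fold enrichment of 3.02 and ranked 5291. It lay 8.85 kb from the Chrnb2 start and 0.13 kb from that of Ube2q1, so its nearest gene was not the subunit gene. Chrna4 and Chrna7 had no Mnx1 region within 50 kb. Mnx1 was listed for wild-type motor neurons, and the antibodies that the labels list include one against GFP but none against Mnx1, so how it was pulled down is not stated.

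**Figure D5:**
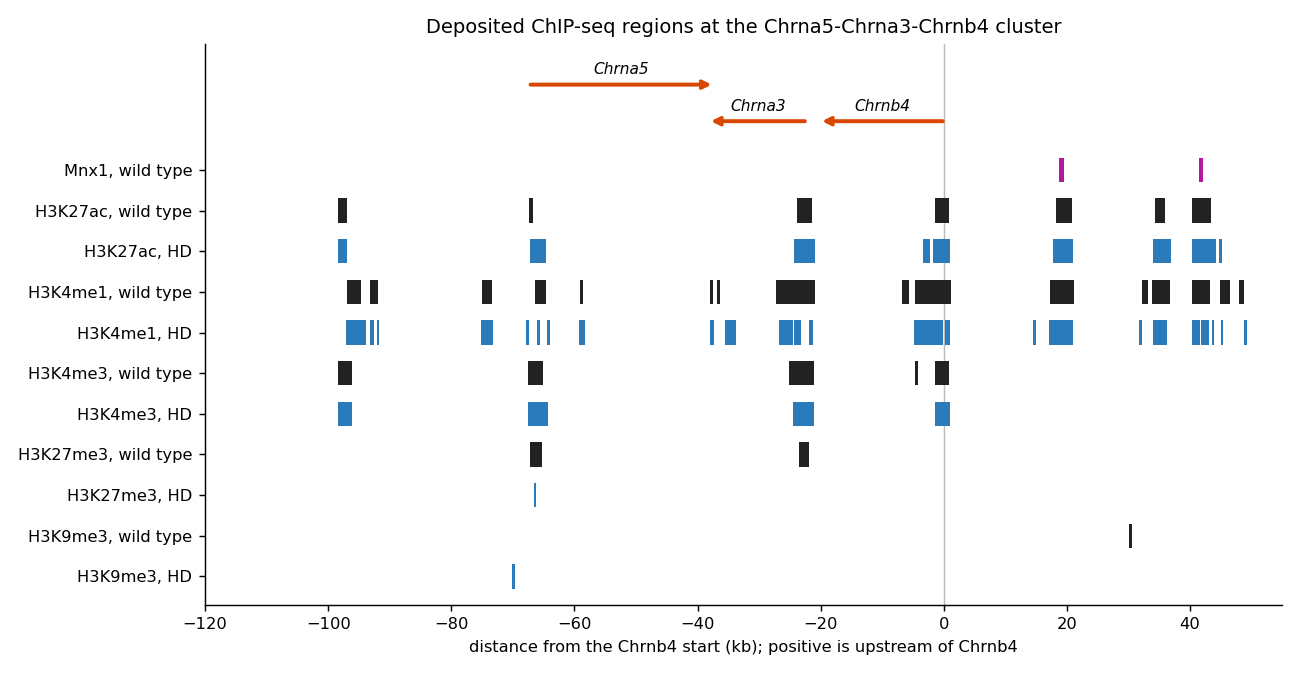
Deposited ChIP-seq regions around the gene cluster, by distance in kb from the Chrnb4 start, with genes as arrows in the direction of transcription, and Mnx1 in magenta, wild-type marks in black and HD marks in blue. The 2 Mnx1 regions, centred 19.1 and 41.8 kb upstream of Chrnb4, lie under H3K27ac and H3K4me1 regions of both genotypes.

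H3K4me3, the mark of active promoters, covered a start of all 6 genes in both lists (63.8% of coding genes had it within 2 kb in wild type and 63% in HD). In the wild-type list the fold enrichment was 76.5 at Chrna7, 65.9 at Chrna4, 64.5 at Chrnb4, 56.7 at Chrna3, 44.1 at Chrna5 and 37.4 at Chrnb2, beside a list median of 33.8. In the HD list it was 31.5 at Chrna5, 28.1 at Chrna4, 27.2 at Chrna7, 21.3 at Chrnb4, 17.4 at Chrna3 and 15.8 at Chrnb2, beside a median of 18.2. Chrna5 was thus the last but 1 of the 6 in wild type and the highest in HD. The lists differ in length and median, and no change is read from these ranks. At Chrna5 the H3K4me3 region covered the second, GC-rich start and not the first, in both lists.

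H3K27ac, found at active promoters and enhancers, also covered a start of all 6 genes in both lists (46% of coding genes in wild type and 47% in HD within 2 kb). Around the cluster, with 50 kb on each side, the wild-type list had 7 regions over 14.2 kb with a median fold of 4.19, and the HD list 9 regions over 22.2 kb with a median of 4.16. The whole lists covered 26.9 and 29.1 Mb. All 7 wild-type regions there overlapped HD regions. The HD list had 2 further ones, at chr9:55045180-55046356 within Chrnb4 (fold 2.48) and at chr9:55093246-55093732 (1.98), near the second Mnx1 region. At Chrna5 the region ran over 658 bp in wild type and 2654 bp in HD, and at the Chrnb4 start over 2242 and 2857 bp. The Chrna5 region was weak in wild type (fold 2.43, −log10 q of 3.30) and in HD (2.65 and 5.70), so little rests on its width.

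H3K27me3, the Polycomb mark of silenced genes, was listed within 2 kb of the start of Chrna3, Chrna4 and Chrna5 in wild type (3 of 6 genes, 18.8% of coding genes). In HD it was listed at Chrna5 alone (1 of 6, 13.3%), as a region of 400 bp in place of 1928 bp. These were weak regions: the highest −log10 q was 4.13 at Chrna3, 2.48 at Chrna5 and 2.46 at Chrna4 in wild type and 1.96 at Chrna5 in HD, and none had a −log10 q of 5 or more. The wild-type list holds 9365 regions and the HD list 5729, and a region missing from a list is not a measured 0. H3K9me3, a mark of heterochromatin, was listed within 2 kb of a start at Chrna5 in HD (5.86% of coding genes) and at 0 of 6 in wild type (8.72%). H3K4me1 was listed within 2 kb at all 6 in both (64.8% of coding genes in wild type and 59.5% in HD). Histone marks of EH were not analysed here, so the line with the highest Chrna3 and Chrnb4 has no chromatin values beside them.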

How the data were processed

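RNA was measured in 8 libraries of 2 per group, poly(A)-selected with a stranded kit per the labels' protocols. The authors deposited RSEM expected counts and TPM per gene in their tables, on mouse build mm10 per the submitters' processing notes, which also name STAR, Bowtie2, featureCounts, DESeq2, SAMtools, Trim Galore and MACS2 without saying which step each served. Versions are not given in the sources used here. Peak lists hold the authors' fold enrichment, a ratio over background, and the −log10 of q, per the file headers. Whether replicates were pooled for peak calling is not given in the sources used here.

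The 6 genes, the gene lists and the tests were chosen with earlier results of these data known. Genes named were the 6 subunits, the listed genes that passed or that a count turns on, and the 3 genes per subunit with the highest correlation among genes with a mean of at least 1 TPM and a range of at least 1 on log2(TPM + 1). Some genes that this rule names are not reported here. Differential tests used the quasi-likelihood F test of edgeR 4.0.16, under R 4.3.3, on rounded expected counts after filterByExpr and with TMM factors. The 6 motor neuron libraries shared 1 fit (15565 genes, 3 residual degrees of freedom), and ES cells were compared in a fit of all 8 libraries (17770 genes). Adjusted p-values are Benjamini-Hochberg values over all genes of a fit, with a threshold of 0.05. Symbols matched 45143 of 45706 gene identifiers. Peak entries that repeated a position were merged into 1 region, with the highest enrichment, and unplaced scaffolds were dropped, which took Mnx1 from 5943 entries to 5793 regions. A region overlapped another from 1 bp. Promoters and gene positions came from RefSeq on GRCm38.p6, of which mm10 is the same build. The fits were tested on simulated data with 200 changed genes. Alternatives were DESeq2 1.42.0, other size factors, no count filter, limma 3.58.1 on log2(TPM + 1) and log2(TPM + 0.1), a replicate block, the 2 groups alone, each library left out, other windows and other q limits. Counting intervals cover counting error only.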

Additional observations from a re-analysis of the deposited data

Results flagged for a closer look

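The test of HD against EH passed for 2 subunits of the cluster and for 10 other listed genes, cell type markers not counted. It passed for 21.2% of all 15565 genes tested, so a difference between the lines was common. For the genes that passed, the difference from wild type was not the same in the lines. Values are log2 fold changes of HD over EH, adjusted p-values are edgeR's, and wild type does not enter the difference. Chrna3 was at −1.38 and Chrnb4 at −1.95, given as descriptions because the subunits were chosen on these data. Lypd1 was at 2.66 (adjusted p = 0.0017) and Ly6h at 1.44 (adjusted p = 0.0032), and both passed in all 13 alternatives. Tmem35a was at 0.83 (adjusted p = 0.0061), Ly6e at 0.77 (adjusted p = 0.0089) and Vsnl1, the calcium sensor, at 1.88 (adjusted p = 0.015). Among cholinergic genes, Ache (acetylcholinesterase) was at 1.10 (adjusted p = 0.016), Chrm3 at 0.76 (adjusted p = 0.014), Bche at −1.23 (adjusted p = 0.0074) and Slc5a7 (choline uptake) at −0.74 (adjusted p = 0.016). The neighbour Ireb2 was at −0.38 (adjusted p = 0.029). In each of these genes both libraries of one line lay above both of the other. Ache, Bche, Chrm3, Ireb2 and Slc5a7 no longer passed without either HD library, Vsnl1 without replicate 1 of HD, and Ly6e and Tmem35a without replicate 2 of HD. Bche also did not pass with limma under either pseudocount, and Ireb2 with the 2 groups alone, with a replicate block, or without either wild-type library.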

How the results depend on the processing

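Against ES cells, all 6 subunits kept their direction and call in every alternative. Called genes in HD against wild type numbered 27, and 182 with DESeq2, 336 with the 2 groups alone, 142 without the count filter, and 0 to 323 over the libraries left out (0 without replicate 1 of HD, 323 without replicate 1 of EH). In EH against wild type 3301 genes were called, and 2121 with the 2 groups alone, 2092 and 2189 with limma on log2(TPM + 0.1) and log2(TPM + 1), and 96 to 5925 over the libraries left out (96 without replicate 2 of wild type, 152 without replicate 1). For the mean of both lines 127 were called, and 983 with DESeq2, 74 and 79 with limma, 953 without the filter and 0 to 3453 over the libraries left out. Between the lines 3303 were called, and 2014 with the 2 groups alone and 280 to 5209 over the libraries left out. The cause was not tested. Leaving out a library leaves fewer samples, and the part of this was not tested. The counts fell with some libraries left out and rose with others. The HD test takes its spread from all 6 motor neuron libraries, EH among them, and the part of this was not tested.

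Same-numbered libraries did not deviate together (correlations of −0.077 to 0.080), and the main fit used no pairing by number. This check cannot tell whether they were prepared as pairs. With a replicate block, 0 genes were called in HD, 2080 in EH, 5 for the mean of the lines and 2154 between the lines.

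Some small subunit values that had not passed the threshold changed sign, and a few of the alternative values passed it. Chrna4 in EH against wild type (0.03) was at −0.01 with limma under both pseudocounts and ran from −0.24 to 0.28 over the libraries left out. Over those libraries, Chrna4 ran from −0.08 to 0.43 between the lines (0.43 passed) and from −0.02 to 0.24 for their mean, Chrna5 from −0.20 to 0.36 between the lines, Chrna7 from −0.09 to 0.12 in HD, and Chrnb2 from −0.40 to 0.20 in EH (−0.40 passed) and from −0.06 to 0.24 for the mean (0.24 passed). Hykk against ES cells (−0.53) was at 0.12 and 0.08 with limma under the smaller and larger pseudocount. Subunits with an Mnx1 region numbered 3 within 50 kb, 1 within 10 kb and 5 within 100 kb. H3K27me3 was at 3 promoters in wild type and 1 in HD, and at 0 and 0 with a −log10 q of 5 or more; at the start itself it was at 0 in HD. H3K4me1 lay on the start itself at 3 genes in wild type and 1 in HD, in place of 6 and 6. H3K9me3 in HD was at 0 under both of these limits, in place of 1. H3K27ac in wild type was at 5 promoters with a −log10 q of 5 or more, in place of 6.

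Precision is limited by 2 libraries a group and 3 residual degrees of freedom, and ChIP depth is unknown.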
